A study of Mus musculus with 24 samples.

Results

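β-Catenin, the T cell factors that carry it to DNA and the genes that hold it in check were followed in mouse T cells that carried a human β-catenin transgene. The 10 genes are Ctnnb1, which encodes β-catenin, Tcf7, Lef1, Tcf7l2, Bcl9, Axin1, Axin2, Apc, Gsk3b and Nkd1. They were chosen by name as members of the canonical Wnt pathway, and all 10 were found among the 35817 gene symbols of the tables. The libraries were made from splenic CD8+ or CD4+ T cells of the C57BL/6 background with genotype Cat-Tg or WT, sorted by flow cytometry. Pre-tx cells were taken from the donor mice, and post-tx cells were donor cells recovered on day 7 from the spleens of lethally irradiated BALB/c recipients, which had also received WT bone marrow depleted of T cells. The 8 groups are therefore Cat-Tg CD8 pre-tx, WT CD8 pre-tx, Cat-Tg CD8 post-tx, WT CD8 post-tx and the same set in CD4, with 3 libraries each. The ages of the animals are not given in the labels. The labels do not say which animals gave which libraries, so p-values measure the spread between these libraries. Per the study's methods, both sorts came from each of 3 mice per genotype and time, so CD8 and CD4 libraries share animals. The names of the Cat-Tg libraries carry another prefix than those of the WT libraries, so genotype and library series cannot be told apart. The transgene is an N-terminally truncated human β-catenin under a T-lineage promoter, in mice descended from FVB founders. Its reads have no entry of their own in the mouse tables, and any that match mouse β-catenin would have been counted under Ctnnb1.

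In the absence of a Wnt signal, a cytoplasmic complex built on the scaffolds Axin1, Axin2 and Apc lets the kinase Gsk3b phosphorylate the N terminus of β-catenin, which is then degraded. A Wnt signal, or a β-catenin without that N terminus, escapes this and enters the nucleus, where it binds TCF-1 (from Tcf7), LEF-1 (from Lef1) or TCF4 (from Tcf7l2), with Bcl9 as a bridge to coactivators. Axin2 and Nkd1 are known as feedback genes that the pathway switches on and that dampen it. In T cells TCF-1 and LEF-1 are needed for thymic development, are abundant in naive and memory cells, and are known to be lower in effector cells.

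Both Tcf7 and Lef1 can give proteins with and without the domain that binds β-catenin, and the annotated Lef1 transcripts separate these forms while the Tcf7 transcripts do not. The Lef1 sequences are shown here for that reason, with the windows before the Lef1 and Tcf7 starts. Lef1 lies at chr3:131110471-131224356 on the plus strand and Tcf7 at chr11:52252371-52283014 on the minus strand of GRCm38. The transcript Lef1-201 starts in exon 1 and Lef1-203 starts at position 131112797, in the intron between exons 1 and 2 of Lef1-201. Their coding starts are printed below from the GENCODE M21 transcripts, 5′ to 3′, with the bases of exon 2 that both share in capitals.

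Lef1-201 coding start: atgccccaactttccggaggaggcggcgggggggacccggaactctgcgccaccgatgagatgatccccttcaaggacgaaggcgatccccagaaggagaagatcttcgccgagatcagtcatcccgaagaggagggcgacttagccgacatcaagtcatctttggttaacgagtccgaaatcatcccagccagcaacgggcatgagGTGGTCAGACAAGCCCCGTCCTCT

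Lef1-203 coding start: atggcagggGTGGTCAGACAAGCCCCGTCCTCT

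Lef1-201 had 207 coding bases (69 codons) before the shared part, where LEF-1 binds β-catenin, and Lef1-203 had 9 (3 codons). The other 987 coding bases, stop codon included, are common to both. The 250 bases before the outermost RefSeq start of Lef1 and before the one nearest to Lef1-203, and the 116 bases before the RefSeq start of Tcf7 nearest to that of Tcf7-201, up to exon 2 of Tcf7-202, are printed below from RefSeq on GRCm38.p6 in the direction of transcription, with CpG pairs in capitals. The windows are chr3:131110047-131110296, chr3:131112541-131112790 and chr11:52282596-52282711.

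Lef1 first start: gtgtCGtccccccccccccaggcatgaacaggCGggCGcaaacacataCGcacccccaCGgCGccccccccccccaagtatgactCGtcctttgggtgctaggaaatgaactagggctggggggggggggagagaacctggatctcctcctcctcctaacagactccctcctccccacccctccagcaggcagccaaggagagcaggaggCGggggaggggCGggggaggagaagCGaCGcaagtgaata

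Lef1 internal start: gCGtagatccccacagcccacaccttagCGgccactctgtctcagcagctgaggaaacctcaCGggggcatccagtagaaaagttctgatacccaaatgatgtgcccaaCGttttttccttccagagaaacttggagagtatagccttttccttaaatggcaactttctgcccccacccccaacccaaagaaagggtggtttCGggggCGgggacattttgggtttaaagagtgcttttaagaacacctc

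Tcf7 internal start: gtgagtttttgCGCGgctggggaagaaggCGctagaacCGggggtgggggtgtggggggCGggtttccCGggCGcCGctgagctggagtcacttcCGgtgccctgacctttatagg

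The window of the outer Lef1 start held 11 CpG pairs at a GC content of 66.4%, more pairs than in 64.4% of the 32851 RefSeq promoter windows, whose median was 6. The window of the internal start held 6 at 50.8% GC, more than in 49.6% of windows, and the Tcf7 window held 9 at 66.4% GC. Both strands of the promoter windows (250 bases before and 50 after each start) were searched for the letters CTTTGAT and CTTTGAA, the core that TCF proteins are known to bind. None of 14 windows of 8 of the listed genes held either, against 8.65% of all windows. Axin1 had no window, and Apc was left out of the search.

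The values below are given as CPM, the counts of a gene relative to its library total, with libraries scaled to each other by TMM, and differences as log2 fold changes with their SE. Library totals ranged from 11135713 to 50519825 estimated counts (median 27062440), so that 3 counts corresponded to 0.0594 to 0.269 CPM. In 20 of 24 libraries the nearest other library was of the same group. The exceptions were the 3 libraries labelled WT CD8 pre-tx, all nearest to WT CD4 pre-tx replicate 2, and WT CD8 post-tx replicate 3, nearest to Cat-Tg CD8 post-tx replicate 3. The markers of the sort did not separate the WT pre-tx libraries. The libraries labelled WT CD8 pre-tx averaged 96.1 CPM of Cd4, against 1.71 in Cat-Tg CD8 pre-tx, and those labelled WT CD4 pre-tx averaged 126 CPM of Cd8a, against 6.15 in Cat-Tg CD4 pre-tx. A list of 14 B cell genes summed to 5390 to 8980 CPM in the 6 WT pre-tx libraries and to 232 to 738 in the 6 Cat-Tg pre-tx libraries, whereas 14 T cell genes summed to 2130 to 3800 and 7430 to 10700 CPM. No comparison with WT pre-tx can be made without these libraries. For this reason Tcf7 and Lef1 are also given per T cell transcript, as a percentage of the summed CPM of 10 T cell genes (Cd3d, Cd3e, Cd3g, Cd247, Lck, Zap70, Lat, Cd2, Cd5 and Cd6). In bulk libraries, fewer cells of a type and less RNA per cell cannot be told apart.

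**Figure D1:**
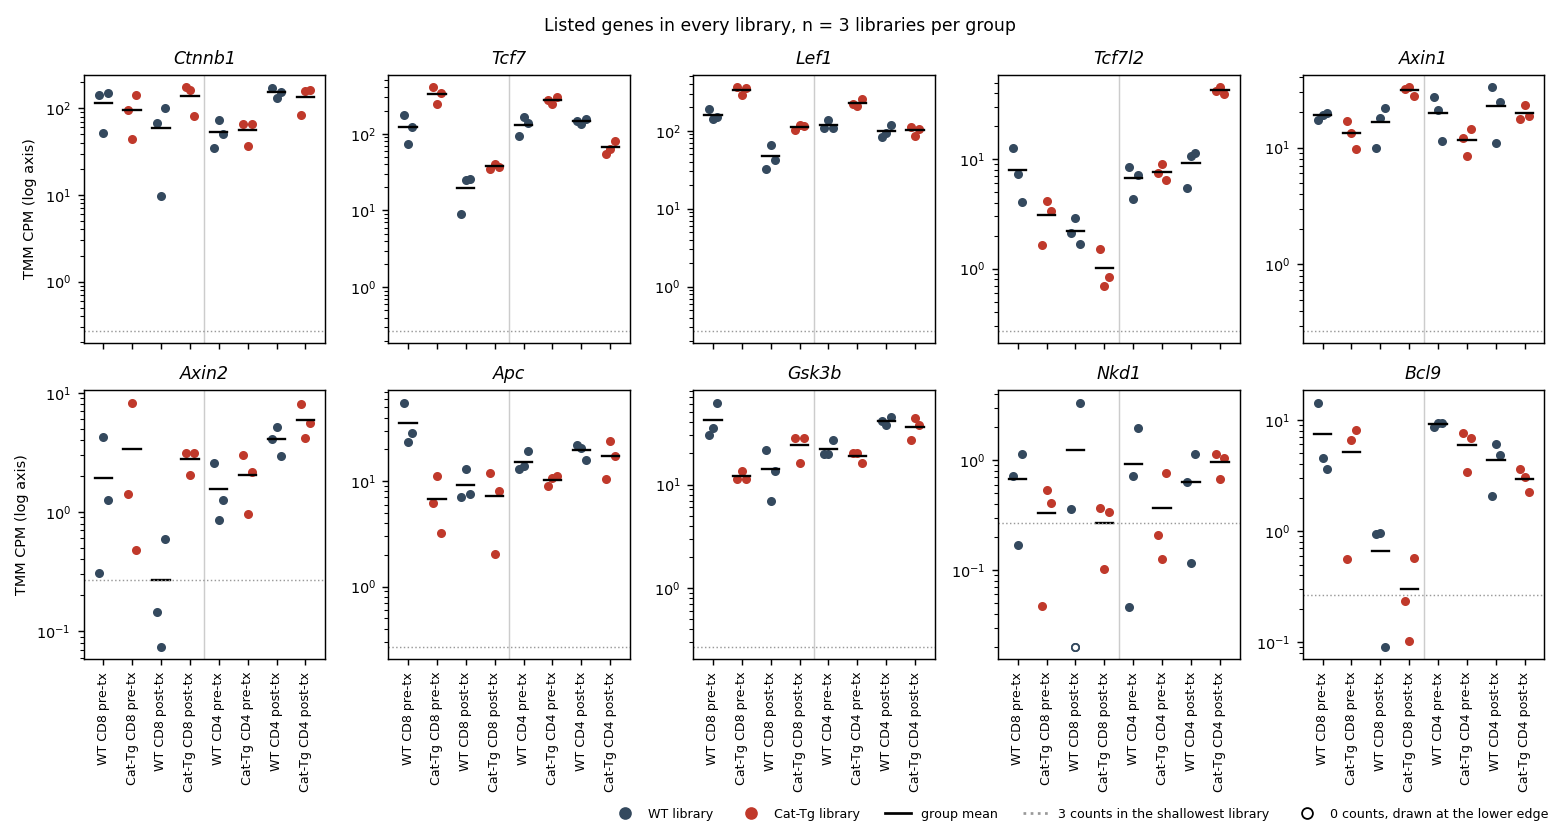
TMM-scaled CPM on log axes of each of the 10 genes in the 24 libraries by group, with 1 point per library (WT blue, Cat-Tg red), bars for group means, a dotted line at 3 counts of the shallowest library and an open point for 0 counts. Tcf7 spans 19.9 to 333 CPM over the group means, Ctnnb1 53.1 to 152, and Tcf7l2 stands at 42.5 in Cat-Tg CD4 post-tx against at most 9.16 in the other groups.

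Tcf7, which encodes TCF-1, was lower post-tx than pre-tx in 3 of the 4 pairs of groups. In Cat-Tg CD8 it stood at 409, 245 and 344 CPM pre-tx and at 35.1, 39.9 and 37.4 post-tx. In WT CD8 it stood at 174, 72.8 and 123 CPM pre-tx and at 9.1, 25 and 25.5 post-tx. In Cat-Tg CD4 it stood at 272, 246 and 302 CPM pre-tx and at 54.4, 63.9 and 80.4 post-tx. The pre-tx and post-tx libraries of these 3 pairs did not overlap. WT CD4 was the exception, with 93.2, 164 and 137 CPM pre-tx and 147, 135 and 154 post-tx, which overlapped. In the order of group means, Cat-Tg CD8 pre-tx (333 ± 82.8, SD, n = 3) and Cat-Tg CD4 pre-tx (273 ± 28.4) led and overlapped each other. WT CD4 post-tx (145 ± 9.31), WT CD4 pre-tx (131 ± 35.6) and WT CD8 pre-tx (123 ± 50.7) followed, each overlapping its neighbour. Cat-Tg CD4 post-tx (66.2 ± 13.2), Cat-Tg CD8 post-tx (37.5 ± 2.41) and WT CD8 post-tx (19.9 ± 9.32) closed the order, the last 2 steps without overlap.

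Lef1, the other TCF-family gene that was abundant in these T cells, spanned a narrower range. Cat-Tg CD8 held 367, 285 and 349 CPM pre-tx and 102, 119 and 114 post-tx, and WT CD8 held 190, 141 and 150 pre-tx and 31.9, 66 and 42.6 post-tx. Cat-Tg CD4 held 221, 205 and 258 CPM pre-tx and 112, 86.6 and 105 post-tx. WT CD4 held 110, 136 and 110 pre-tx and 84.2, 94.7 and 119 post-tx. Only the WT CD4 groups overlapped among these 4 pairs. The top of the order, Cat-Tg CD8 pre-tx (334 ± 42.8), Cat-Tg CD4 pre-tx (228 ± 27.1) and WT CD8 pre-tx (160 ± 25.9), had no overlap between neighbours. The 4 groups between 99.4 and 119 CPM overlapped their neighbours, and WT CD8 post-tx (46.8 ± 17.5) lay below them all.

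Tcf7l2, the gene of TCF4, which is better known from epithelia than from T cells, had one high group. In Cat-Tg CD4 post-tx it stood at 41.9, 45.9 and 39.8 CPM (42.5 ± 3.06), and no library of the other 7 groups was above 12.7. Cat-Tg CD8 post-tx was at the other end, with 1.51, 0.687 and 0.833 CPM. WT CD4 post-tx held 5.42, 10.6 and 11.5 CPM. Bcl9, the bridge between β-catenin and Pygopus, was low throughout, with group means from 2.96 to 9.11 CPM in all groups but CD8 post-tx. The Cat-Tg CD8 post-tx libraries held 0.235, 0.103 and 0.568 CPM (3 to 15 counts) and the WT ones 0.946, 0.959 and 0.0911 (2 to 13 counts).

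Ctnnb1 itself did not separate the genotypes in any of the 4 settings. Cat-Tg CD8 held 96, 43.9 and 143 CPM pre-tx and 177, 161 and 81.6 post-tx, and WT CD8 held 144, 52.2 and 150 pre-tx and 67.3, 9.74 and 101 post-tx. Cat-Tg CD4 held 65.2, 36.5 and 65.4 pre-tx and 84, 158 and 164 post-tx, and WT CD4 held 35.1, 74.1 and 50.1 pre-tx and 172, 131 and 152 post-tx. Cat-Tg and WT libraries overlapped in all 4. The lowest library, WT CD8 post-tx replicate 2, had 9.74 CPM. Group means ran from 53.1 ± 19.7 CPM in WT CD4 pre-tx to 152 ± 20.5 in WT CD4 post-tx, a ratio of 2.86, and every neighbour in that order overlapped. Compared per length in TPM (counts per transcript length, scaled to a common total), Lef1 (116) and Tcf7 (111) stood well above Ctnnb1 (22.5) in Cat-Tg CD8 pre-tx. In Cat-Tg CD4 post-tx the TPM were 50 for Ctnnb1, 46.8 for Lef1, 33.5 for Tcf7 and 21.3 for Tcf7l2, and in WT CD8 post-tx they were 15.5 for Ctnnb1, 10.4 for Lef1 and 4.49 for Tcf7.

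Among the genes that restrain β-catenin, the scaffold gene Axin1 ranged from 11.6 to 30.8 CPM over the group means, with every neighbour overlapping. Its highest libraries were those of Cat-Tg CD8 post-tx, at 31.8, 33.1 and 27.5 CPM, and WT CD4 post-tx replicate 1, at 33. Apc, the second scaffold, was highest in WT CD8 pre-tx (55.6, 23.6 and 28.3 CPM) and at 7.06, 13.1 and 7.56 in WT CD8 post-tx, without overlap. Its Cat-Tg CD8 libraries held 6.15, 11.1 and 3.25 CPM pre-tx and 11.9, 2.03 and 7.99 post-tx, which overlapped. The kinase gene Gsk3b stood at 11.4, 13.6 and 11.2 CPM in Cat-Tg CD8 pre-tx and at 28.4, 16 and 28.3 post-tx, but at 30.4, 35.1 and 62.2 in WT CD8 pre-tx and at 21.6, 6.93 and 13.4 post-tx. Post-tx was the higher in Cat-Tg and the lower in WT, in both without overlap.

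The feedback genes were scarce. Axin2 stood at 0.146, 0.0738 and 0.592 CPM in WT CD8 post-tx (1 to 13 counts) and at 3.12, 2.06 and 3.11 in Cat-Tg CD8 post-tx, without overlap. Cat-Tg CD4 post-tx held 8.02, 4.16 and 5.53 CPM of Axin2 and WT CD4 post-tx 4.12, 5.17 and 2.93, which overlapped. Pre-tx Axin2 ranged from 0.307 to 8.29 CPM over the CD8 libraries and from 0.858 to 3.03 over the CD4 libraries. Nkd1 ranged from 0 to 3.37 CPM over all 24 libraries, with the widest spread in WT CD8 post-tx (0.364, 0 and 3.37 CPM), and it did not pass the filter of the CD8 fit (over 1 CPM in at least 3 libraries). Neighbouring groups of Nkd1 overlapped throughout the order of means.

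Cat-Tg and WT were first compared pre-tx, with 3 libraries against 3. The comparison used edgeR's quasi-likelihood test with Benjamini-Hochberg adjustment over all genes, a gene being called at an adjusted p of at most 0.05. In CD8 pre-tx, 2 of 9 listed genes tested were called, against 8.98% of all genes. Both were higher in Cat-Tg. Tcf7 was higher by a log2 fold change of 1.61 ± 0.428 (SE), or 3.05-fold, with an adjusted p of 0.0279 (edgeR). Lef1 was higher by 1.22 ± 0.341, or 2.32-fold, with an adjusted p of 0.0354. Ctnnb1 differed by −0.12 ± 0.669 (95% interval −1.54 to 1.31; adjusted p = 0.95). The 7 listed genes not called ranged from −2.19 (Apc, adjusted p = 0.0595) to 0.94. The median over the 9 was −0.35, beside −0.07 over all genes. Leaving out any single library of the 6 took away the Lef1 call (edgeR adjusted p 0.0669 to 0.13). The Tcf7 call was lost without Cat-Tg replicate 1 or 3 or WT replicate 2 or 3 (highest edgeR adjusted p 0.104).

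In CD4 pre-tx, 2 of 10 listed genes were called, against 20.4% of all genes, and they were again Tcf7 and Lef1, both higher in Cat-Tg. Tcf7 was higher by 1.18 ± 0.222 on the log2 scale, or 2.26-fold (edgeR adjusted p = 0.00152), and Lef1 by 1.05 ± 0.226, or 2.08-fold (edgeR adjusted p = 0.00371). Ctnnb1 differed by 0.19 ± 0.289 (95% interval −0.42 to 0.81; edgeR adjusted p = 0.734). The 8 genes not called ranged from −1.27 to 0.43, and the medians were 0.03 over the listed genes and 0.03 over all. The Lef1 call was lost without WT replicate 1 or WT replicate 3 (highest edgeR adjusted p 0.0625), and the Tcf7 call held without any single library (highest edgeR adjusted p 0.0473).

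These pre-tx differences changed sign when levels were taken per T cell transcript. Of the summed CPM of the 10 T cell genes, Tcf7 made up 3.82% ± 0.574 in Cat-Tg CD8 pre-tx and 6.33% ± 2.27 in WT CD8 pre-tx (SD, n = 3). Lef1 made up 3.86% ± 0.2 and 8.34% ± 0.924. With libraries scaled to these T cell genes, Tcf7 in CD8 pre-tx was at −0.73 (edgeR adjusted p = 0.0896) and Lef1 was lower in Cat-Tg, at −1.11 (edgeR adjusted p = 0.00416). In CD4 pre-tx Tcf7 was at −0.39 (edgeR adjusted p = 0.212) and Lef1 at −0.51 (edgeR adjusted p = 0.092). Ctnnb1 was lower in Cat-Tg on this scale, at −2.49 in CD8 pre-tx (edgeR adjusted p = 0.0113) and at −1.34 in CD4 pre-tx (edgeR adjusted p = 0.00419). This scaling moved the median of all genes by −2.30 in CD8 pre-tx and by −1.58 in CD4 pre-tx. The 14 B cell genes moved with the same contrast, with 13 lower in Cat-Tg CD8 and 14 lower in Cat-Tg CD4, and their part in the Tcf7 and Lef1 differences was not tested.

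**Figure D2:**
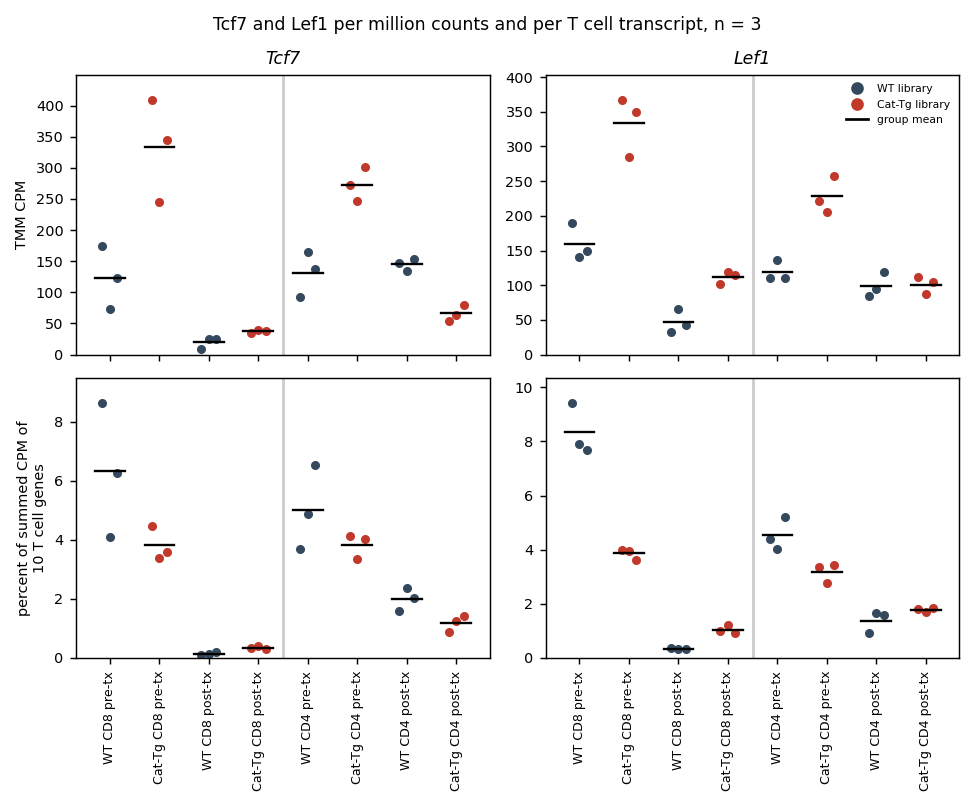
Tcf7 and Lef1 in each library by group, as TMM-scaled CPM (top) and as a percentage of the summed CPM of 10 T cell genes (bottom), with 1 point per library and bars for the group means (n = 3). In CD8 pre-tx the Cat-Tg mean of Lef1 is above WT at the top (334 against 160 CPM) and below it at the bottom (3.86% against 8.34%), while in CD8 post-tx it is above WT on both scales (112 against 46.8 CPM and 1.04% against 0.347%).

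The same comparison was made post-tx, in T cells that had met the recipient. In CD8 post-tx, edgeR called 0 of 9 listed genes, against 1.67% of all genes. Of the 9, 3 had an unadjusted p under 0.05, DESeq2 called 1 and limma-voom 0. Lef1 stood closest, with 102, 119 and 114 CPM in Cat-Tg against 31.9, 66 and 42.6 in WT, which did not overlap, a difference of 1.32 ± 0.342 on the log2 scale (edgeR adjusted p = 0.0618). Per T cell transcript it was 1.04% ± 0.155 in Cat-Tg and 0.347% ± 0.0119 in WT, and with libraries scaled to the T cell genes the call was made (1.58, edgeR adjusted p = 0.0133). Leaving out 1 library at a time gave Lef1 an edgeR adjusted p of 0.0145 to 0.259. Tcf7 differed by 0.98 ± 0.423 (edgeR adjusted p = 0.224), Ctnnb1 by 1.28 ± 0.68 (95% interval −0.16 to 2.73; edgeR adjusted p = 0.317) and Axin2 by 3.30 ± 1.3 (edgeR adjusted p = 0.198). The medians were 0.96 over the listed genes and −0.18 over all. Without both CD8 post-tx libraries numbered 3, an alternative added after seeing the data, Lef1 differed by 1.48 (edgeR adjusted p = 0.0892).

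In CD4 post-tx, 2 of 10 listed genes were called, against 10.2% of all genes, 1 in each direction. Tcf7 was lower in Cat-Tg by a log2 fold change of −1.15 ± 0.222, or 2.22-fold (edgeR adjusted p = 0.00464), and Tcf7l2 was higher by 2.19 ± 0.427, or 4.55-fold (edgeR adjusted p = 0.00491). Both calls held without any single library. Lef1 differed by 0.02 ± 0.224 (95% interval −0.46 to 0.49; edgeR adjusted p = 0.976) and Ctnnb1 by −0.19 ± 0.288 (edgeR adjusted p = 0.763), which turned to 0.25 with libraries scaled to the T cell genes. The 8 genes not called ranged from −0.58 to 0.62. On that scale Tcf7 was at −0.76 and no longer called (edgeR adjusted p = 0.0763), whereas Tcf7l2 was at 2.53 (edgeR adjusted p = 0.00578). Myeloid and red cell genes moved with this contrast. A list of 12 myeloid genes summed to 4050 ± 1170 CPM in Cat-Tg CD4 post-tx and to 1160 ± 265 in WT, with 9 of 12 called higher, and 7 red cell genes summed to 13200 ± 10400 and 877 ± 262 CPM, with 7 of 7 called higher. Their part in the Tcf7l2 difference was not tested.

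**Figure D3:**
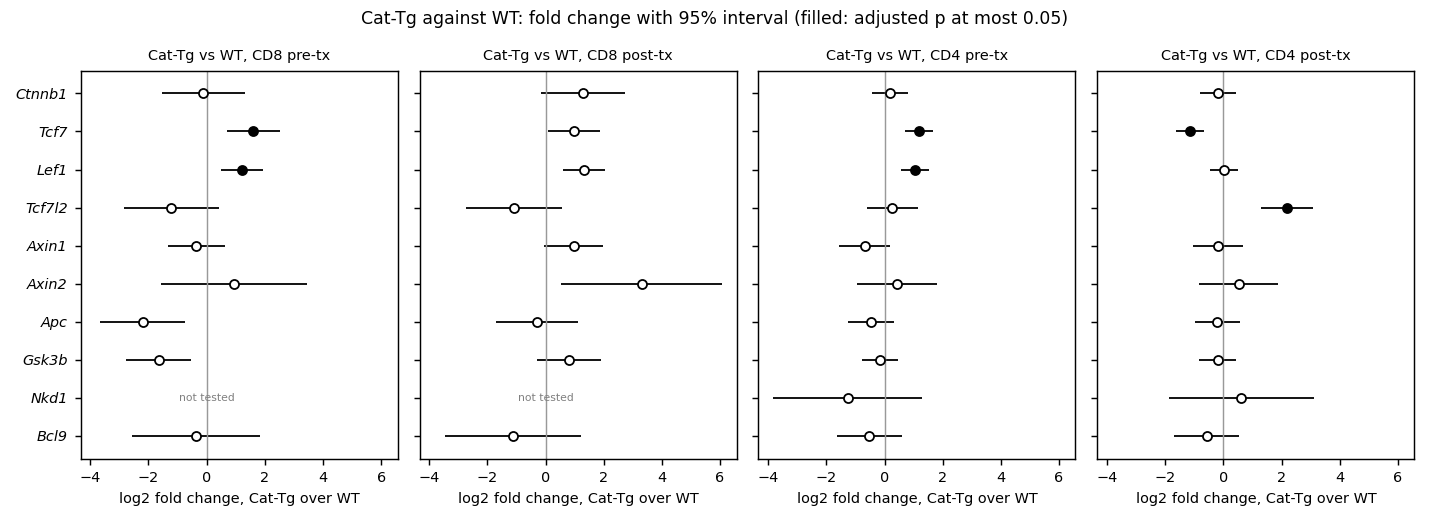
Log2 fold change of Cat-Tg over WT for the 10 listed genes in each of the 4 settings (edgeR), with 95% intervals and filled points for an adjusted p of at most 0.05. Tcf7 lies at 1.61 and 1.18 in CD8 and CD4 pre-tx and at −1.15 in CD4 post-tx, and Ctnnb1 has an open point in all 4 panels. With libraries scaled to T cell genes the pre-tx values of Tcf7 turn to −0.73 and −0.39.

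Transplantation itself was read within each genotype and cell type, day 7 against pre-tx. In Cat-Tg CD8, 3 of 9 listed genes were called, all lower post-tx, against 13.9% of all genes. Tcf7 fell by 3.28 ± 0.456 on the log2 scale, or 9.74-fold (edgeR adjusted p = 0.000333), and Lef1 fell by 1.71 ± 0.345, or 3.28-fold (edgeR adjusted p = 0.00482). Bcl9 fell by 4.26 ± 1.2 (edgeR adjusted p = 0.0293) although Cat-Tg CD8 pre-tx replicate 1, at 0.563 CPM, lay within the post-tx range. Its call was lost without pre-tx replicate 2 or 3 or post-tx replicate 1 or 2 (highest edgeR adjusted p 0.116). Ctnnb1 differed by 0.47 ± 0.67 (edgeR adjusted p = 0.627).

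In WT CD8, 5 of 9 listed genes were called, all lower post-tx, against 23.6% of all genes. Tcf7 fell by 2.65 ± 0.445 (edgeR adjusted p = 0.00055) and Lef1 fell by 1.82 ± 0.347 (edgeR adjusted p = 0.00142), in both cases also without any single library. Apc fell by 1.99 ± 0.682 (edgeR adjusted p = 0.046), Gsk3b fell by 1.60 ± 0.525 (edgeR adjusted p = 0.0372) and Bcl9 fell by 3.52 ± 1.16 (edgeR adjusted p = 0.038). The Apc call held only in the fit without WT post-tx replicate 2, the Gsk3b call was lost without WT pre-tx replicate 2 or 3 or WT post-tx replicate 3, and the Bcl9 call without WT pre-tx replicate 1 or WT post-tx replicate 2 or 3, with highest edgeR adjusted p of 0.169, 0.141 and 0.14. Ctnnb1 differed by −0.93 ± 0.675 (edgeR adjusted p = 0.362). With libraries scaled to the T cell genes, which moved the median of all genes by −2.64, all 9 listed genes tested were called lower, among them Ctnnb1 at −3.46 (edgeR adjusted p = 0.00176). On that scale 11557 of 15960 genes were called. With TMM the median was −1.88 over the listed genes and −0.23 over all. The WT pre-tx side of this contrast holds the B cell genes given above, all 14 of which were lower post-tx.

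In Cat-Tg CD4, 4 of 10 listed genes were called, against 45.2% of all genes. Tcf7 fell by 2.37 ± 0.231, or 5.17-fold (edgeR adjusted p = 5.31e-06), and Lef1 fell by 1.48 ± 0.228, or 2.8-fold (edgeR adjusted p = 0.000176). Ctnnb1 rose by 0.95 ± 0.291 (edgeR adjusted p = 0.0151) and Tcf7l2 rose by 2.15 ± 0.427, or 4.43-fold (edgeR adjusted p = 0.00124). The Ctnnb1 call was lost without pre-tx replicate 2 or post-tx replicate 2 or 3 (highest edgeR adjusted p 0.0732). The calls of Tcf7, Lef1 and Tcf7l2 held without any single library. Of the myeloid list 8 of 12 genes, and of the red cell list 5 of 7, rose in the same contrast, and their part in the Tcf7l2 rise was not tested.

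In WT CD4, 1 of 10 was called, against 24.3% of all genes. It was Ctnnb1, which rose by 1.33 ± 0.293, or 2.52-fold (edgeR adjusted p = 0.00386), also without any single library. Tcf7 differed by −0.04 ± 0.219 (95% interval −0.51 to 0.42; edgeR adjusted p = 0.904) and Lef1 by −0.45 ± 0.224 (edgeR adjusted p = 0.153). The WT CD4 result depended on the scale. With libraries scaled to the T cell genes, which moved the median of all genes by −1.28, Tcf7 was lower post-tx at −1.33 (edgeR adjusted p = 0.000969), Lef1 was lower at −1.72 (edgeR adjusted p = 8.24e-05), and Ctnnb1 was at 0.05 (edgeR adjusted p = 0.919). As a share of the T cell genes, Tcf7 went from 5.02% in WT CD4 pre-tx to 2% post-tx, and in Cat-Tg CD4 from 3.83% to 1.18%.

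The interaction term of the CD8 and CD4 fits asked whether the Cat-Tg effect differed between pre-tx and post-tx. In CD8, 1 of 9 listed genes was called, against 10.7% of all genes. It was Gsk3b, whose Cat-Tg effect was higher post-tx by 2.44 ± 0.735 (edgeR adjusted p = 0.044), a call that held only in the fits without WT CD8 post-tx replicate 1 or 2 (highest edgeR adjusted p 0.113). The interaction was −0.63 ± 0.593 for Tcf7 (edgeR adjusted p = 0.544), 0.10 ± 0.475 for Lef1 (edgeR adjusted p = 0.918) and 1.40 ± 0.95 for Ctnnb1 (edgeR adjusted p = 0.385). Scaled to the T cell genes, which moved the median of all genes by 2.47, all 3 were called higher, Tcf7 turning to 2.0, Lef1 at 2.69 and Ctnnb1 at 3.82 (edgeR adjusted p 0.00639, 0.000146 and 0.00864). On that scale 6927 of 15960 genes were called.

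In CD4, 3 of 10 were called, against 21.4% of all genes. The Cat-Tg effect on Tcf7 was lower post-tx by a log2 fold change of −2.33 ± 0.315 (edgeR adjusted p = 0.000179), and it held without any single library. The effect on Lef1 was lower by −1.03 ± 0.317 (edgeR adjusted p = 0.0303) and that on Tcf7l2 higher by 1.92 ± 0.587 (edgeR adjusted p = 0.03). The Lef1 call was lost in 8 of 12 fits with 1 library left out, and held only without Cat-Tg pre-tx replicate 1 or 2, Cat-Tg post-tx replicate 1 or WT post-tx replicate 1 (highest edgeR adjusted p 0.259). The Tcf7l2 call was lost without Cat-Tg pre-tx replicate 1 or 3, Cat-Tg post-tx replicate 2 or WT post-tx replicate 1 (highest edgeR adjusted p 0.0638). Of the myeloid list, 8 of 12 genes were called higher in the same interaction (median 2.27), and of the red cell list 7 of 7, and their part in the Tcf7l2 interaction was not tested. Scaled to the T cell genes, which moved the median of all genes by 1.96, the interaction was −0.36 for Tcf7 (edgeR adjusted p = 0.483), 0.88 for Lef1 (edgeR adjusted p = 0.0525) and 3.86 for Tcf7l2 (edgeR adjusted p = 0.000336). For Ctnnb1 it was −0.38 ± 0.407 with TMM (edgeR adjusted p = 0.512) and 1.60 with the T cell genes (edgeR adjusted p = 0.013).

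CD8 and CD4 cells were compared in a fit of all 24 libraries, without a comparison in WT pre-tx, where the sort markers did not separate. The labels do not tie libraries to mice, so the fit held no term for the mouse. In Cat-Tg pre-tx, edgeR called 0 of 10 listed genes, against 1.53% of all genes, with 2 at an unadjusted p under 0.05 and 0 called by DESeq2 and by limma-voom. Tcf7 differed by 0.31 ± 0.323 (edgeR adjusted p = 0.919), Lef1 by 0.58 ± 0.265 (edgeR adjusted p = 0.445) and Ctnnb1 by 0.78 ± 0.552 (edgeR adjusted p = 0.766). In Cat-Tg post-tx, 2 of 10 were called, against 6.00% of all genes, both lower in CD8. Tcf7l2 was lower by −5.52 ± 0.625 on the log2 scale (edgeR adjusted p = 3.41e-06) and Bcl9 by −3.48 ± 0.915 (edgeR adjusted p = 0.0206). Of the myeloid list, 8 of 12 genes were lower in CD8 in the same contrast (median −4.49, summed level 552 ± 235 CPM in CD8 and 4050 ± 1170 in CD4), and their part in the Tcf7l2 difference was not tested. The Bcl9 call was lost without Cat-Tg CD8 post-tx replicate 1 or 2 or Cat-Tg CD4 post-tx replicate 1 (highest edgeR adjusted p 0.128). Tcf7 differed by −0.95 ± 0.326 (edgeR adjusted p = 0.0918), Lef1 by 0.01 ± 0.265 (95% interval −0.54 to 0.56; edgeR adjusted p = 1) and Ctnnb1 by −0.04 ± 0.548 (95% interval −1.17 to 1.09; edgeR adjusted p = 0.989). Scaled to the T cell genes, Tcf7 at −1.76 (edgeR adjusted p = 0.000528) and Lef1 at −0.78 (edgeR adjusted p = 0.0363) were lower in CD8.

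In WT post-tx, 6 of 10 listed genes were called, against 13.1% of all genes, all lower in CD8. Tcf7 was lower by −2.94 ± 0.348 on the log2 scale, or 7.66-fold (edgeR adjusted p = 7.87e-06), without exception among the fits with 1 library left out. Lef1 was lower by −1.16 ± 0.269 (edgeR adjusted p = 0.00484) and Tcf7l2 by −2.12 ± 0.541 (edgeR adjusted p = 0.00987), and both calls were lost only without WT CD8 post-tx replicate 3 (edgeR adjusted p 0.0602 and 0.0549). Gsk3b was lower by −1.58 ± 0.41 (edgeR adjusted p = 0.011), a call lost only without WT CD8 post-tx replicate 2 (edgeR adjusted p 0.136). Axin2 was lower by −3.86 ± 1.08 (edgeR adjusted p = 0.0184) and Bcl9 by −2.79 ± 0.888 (edgeR adjusted p = 0.0383). The Axin2 call was lost without WT CD8 post-tx replicate 1 or 2 or WT CD4 post-tx replicate 2, and the Bcl9 call held only without WT CD4 post-tx replicate 1 (highest edgeR adjusted p 0.0871 and 0.156). Ctnnb1 differed by −1.37 ± 0.559 (edgeR adjusted p = 0.114). Of the myeloid list, 9 of 12 genes were lower in CD8 (median −3.18, summed level 237 ± 52.3 CPM in CD8 and 1160 ± 265 in CD4), and their part in the Tcf7l2 difference was not tested. The medians were −1.47 over the listed genes and −0.03 over all.

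Transcript usage was read as each transcript's share of the gene's estimated counts. For Tcf7 the tables hold 2 transcripts with the same annotated start codon, so the TCF-1 forms with and without the β-catenin binding domain cannot be told apart. Tcf7-201 made up 95.9% to 100% of the counts over the group means. For Lef1, estimated counts were assigned to transcripts with each of the 2 coding starts printed above. The part of Lef1-203 that Lef1-201 lacks is its short first exon, chr3:131112797-131112820. Its share therefore also depends on how well reads covered the first exon of Lef1-201. Use of the internal start was not tested. Lef1-203, without the β-catenin binding part, made up 47.5%, 41.2% and 32.7% of Lef1 counts in Cat-Tg CD8 pre-tx and 25.2%, 25.5% and 27.6% in Cat-Tg CD4 pre-tx, which did not overlap. Post-tx it made up 30.3%, 40.8% and 33.6% in Cat-Tg CD8 and 4.17%, 14.3% and 23.2% in Cat-Tg CD4, again without overlap. These are descriptions with no test. The WT libraries spread more widely, with 33.8%, 3.12% and 30.9% in CD8 pre-tx, 59.4%, 13.1% and 37.3% in CD8 post-tx, 8.21%, 23.4% and 30.4% in CD4 pre-tx and 15.7%, 34% and 31.3% in CD4 post-tx.

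The share of Lef1 counts from transcripts with the full N terminus averaged 7.74 percentage points higher in Cat-Tg than in WT post-tx (2.11 in CD8 and 13.4 in CD4). In an exact two-sided permutation test of genotype within each cell type over the 12 post-tx libraries, p was 0.38 and 0.57 after adjustment over the 3 genes. This test takes the 12 libraries as independent, and since both sorts came from each recipient its p-values are too small. Within 1 cell type, 3 against 3 libraries allow no p below 0.1, and for Lef1 the exact permutation p was 0.8 in CD8 and 0.2 in CD4, a test added after seeing the data. For Ctnnb1 the share with the full N terminus was 95.2%, 99.1% and 98.3% in Cat-Tg CD8 post-tx and 55.1%, 1.66% and 89.7% in WT CD8 post-tx. In CD4 post-tx it was 93.8%, 96.4% and 96.8% in Cat-Tg and 95.6%, 93.8% and 88.4% in WT. The mean difference was 25.9 percentage points, 48.7 in CD8 and 3.1 in CD4. The exact permutation p was 0.01 (adjusted 0.03) over the 12 libraries, with the same limit, but 0.1 in CD8 alone and 0.2 in CD4 alone (0.3 after adjustment in both). Most of the remainder in WT CD8 post-tx was Ctnnb1-215, an annotated retained intron without a start codon, at 41.8%, 80.3% and 8.82% of counts. WT CD8 post-tx replicate 2, with the lowest share, had 132 Ctnnb1 counts in all. Leaving out 1 library at a time gave 14.1 to 36.1 points, and the adjusted p over the libraries rose above 0.05 in 6 of 12 such tests. With shares of TPM the difference was 32.2 points and the adjusted exact permutation p 0.075.

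**Figure D4:**
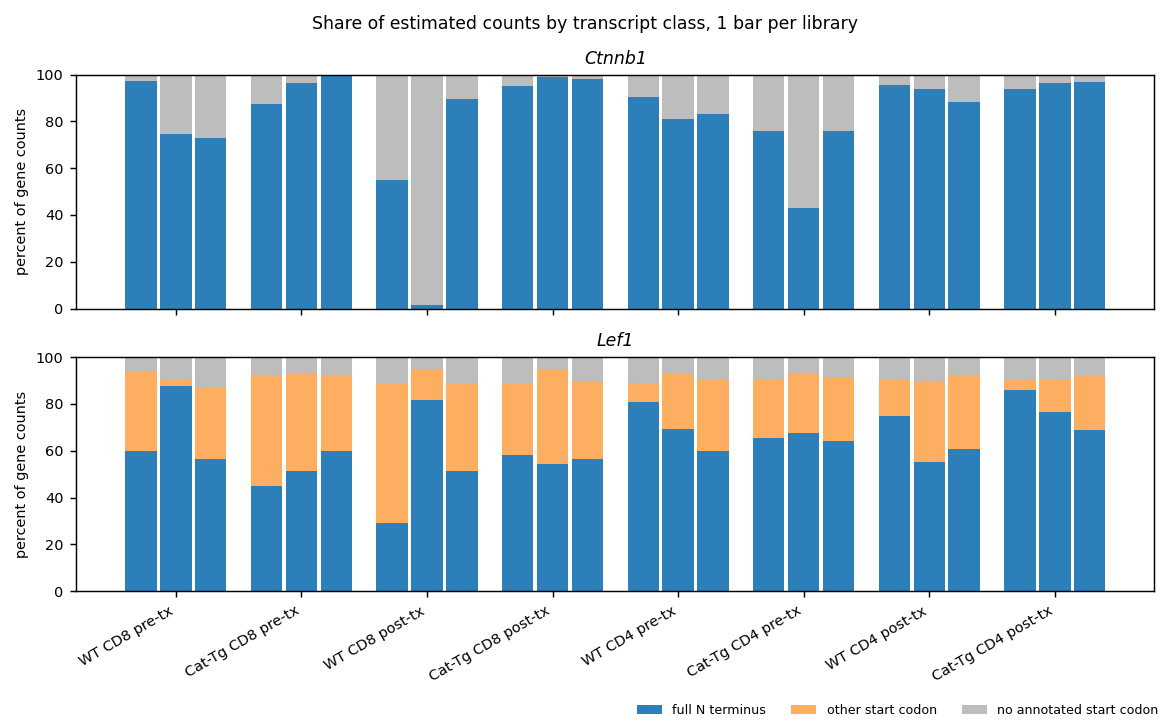
Share of each gene's estimated counts, in percent, from transcripts with the full N terminus (blue), another start codon (orange, Lef1-203) or no annotated start codon (grey), with 1 stacked bar per library. The full N terminus takes less than 50% of Ctnnb1 counts in WT CD8 post-tx replicate 2 (1.66%) and Cat-Tg CD4 pre-tx replicate 2 (42.9%), and 55.1% or more in the other libraries.

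The wider pathway was read in 6 further lists, without the 10 genes above, and in a list of T cell genes tied to TCF-1 and LEF-1. In CD8 post-tx the nuclear partners of β-catenin had 4 calls by edgeR among 21 tested, all higher in Cat-Tg, against 1.67% of all genes called. They were Bcl9l, a relative of Bcl9 (27 against 6.16 CPM, 2.21 on the log2 scale, edgeR adjusted p = 0.0381), the acetyltransferases Ep300 (2.15) and Crebbp (1.89), and the chromatin remodeller Smarca4 (1.91). In that list DESeq2 called 4 higher and 1 lower in Cat-Tg, and limma-voom called 2 higher. The edgeR count of that list was 4 with libraries scaled to the T cell genes, where 381 of 15960 genes were called. It ran from 0 to 5 with 1 library left out. Each of the 4 was called in 3 or 4 of those 6 fits. The interaction in CD8 called the same 4 genes, Ep300 at 4.10, Crebbp at 3.94, Smarca4 at 3.67 and Bcl9l at 2.73, each in all 12 fits with 1 library left out. Crebbp, Ep300 and Smarca4 were the 3 of 21 called in CD8 pre-tx (8.98% of all genes), lower in Cat-Tg at −2.05, −1.95 and −1.76. The Ep300 call held in 3 of 6 fits with 1 library left out, the Smarca4 call in 4 and the Crebbp call in all 6. On the T cell scale, 18 of 21 were lower pre-tx, where 10191 of 15960 genes were called in either direction. In the interaction 12 were higher on that scale, where 6927 of 15960 genes were called. Both contrasts rest on the WT CD8 pre-tx libraries with their B cell transcripts, whose part was not tested. The median over the 21 genes in CD8 post-tx was 0.17, beside −0.18 over all genes.

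Of widely used Wnt target genes, edgeR called 0 of 12 in CD8 post-tx, against 1.67% of all genes. Of the 12, 1 had an unadjusted p under 0.05, and DESeq2 and limma-voom called 0. In CD4 post-tx edgeR called 0 of 15, against 10.2% of all genes. Of the 15, 8 had an unadjusted p under 0.05, and DESeq2 called 5 and limma-voom 2. With libraries scaled to the T cell genes edgeR called 4 in CD4 post-tx, all higher in Cat-Tg, where 1724 of 17227 genes were called. The myeloid and red cell genes given above moved with this CD4 post-tx contrast, and their part in these 4 calls was not tested. The pre-tx calls in this list were 2 of 12 in CD8 (8.98% of all genes), Jun (−4.87) and the adhesion receptor gene Cd44 (−1.71), both lower in Cat-Tg. The Cd44 call held in 1 of 6 fits with 1 library left out (highest edgeR adjusted p 0.11). In CD4 pre-tx 5 of 15 were called (20.4% of all genes), with Id2 (2.14) and Rnf43 (1.40) higher and Jun (−3.37), Ccnd1 (−1.65) and Myc (−1.12) lower in Cat-Tg. On the T cell scale, Rnf43 turned to −0.16 and Id2 was at 0.57 in CD4 pre-tx. The list then had 0 higher and 9 lower in CD8 pre-tx, where 10191 of 15960 genes were called. In CD4 pre-tx it had 0 higher and 7 lower, where 8250 of 17227 genes were called. All these contrasts have the WT pre-tx libraries and their B cell transcripts on one side. Myc, Kremen2 in Cat-Tg CD4 and Ccr7 in CD4 post-tx fall outside the naming rule and were added after their values were seen. The survivin gene Birc5, active in dividing cells, rose post-tx in all 4 genotype and cell type settings, by 4.73 and 4.25 in Cat-Tg and WT CD8 and by 2.82 and 3.07 in Cat-Tg and WT CD4. The rises of Birc5 scaled to the T cell genes were 4.53 and 1.60 in CD8 and 3.52 and 1.76 in CD4.

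Among 24 genes of the cytoplasmic relay, edgeR called 0 in CD8 post-tx, against 1.67% of all genes. Of the 24, 5 had an unadjusted p under 0.05, and DESeq2 called 3 and limma-voom 0. In CD4 post-tx edgeR called 1, against 10.2% of all genes. It was the phosphatase subunit gene Ppp2r5a, lower in Cat-Tg at −1.17 (70.7 against 157 CPM). That call held in 2 of 6 fits with 1 library left out (highest edgeR adjusted p 0.118), and with libraries scaled to the T cell genes Ppp2r5a was at −0.80 (edgeR adjusted p = 0.162). Of the adherens junction partners, 2 of 9 were called in CD4 post-tx (10.2% of all genes), both higher in Cat-Tg. They were Jup, which encodes the β-catenin relative plakoglobin (116 against 23.1 CPM, 2.33, edgeR adjusted p = 0.00275), and Ctnnd1, which encodes p120 catenin (60 against 14 CPM, 2.08, edgeR adjusted p = 0.00514), each also without any single library. The myeloid and red cell genes given above moved with the same contrast, and their part in these calls was not tested. Of the Wnt ligands and secreted modulators, 7 of 34 were tested in CD8 and 14 of 34 in CD4. Between genotypes post-tx, edgeR called 0 in either cell type, against 1.67% of all genes in CD8 and 10.2% in CD4. An unadjusted p under 0.05 was found for 0 and 5 of them, and DESeq2 and limma-voom each called 0 and 1. Wls, the Wnt export receptor gene, fell post-tx by 2.76 in Cat-Tg CD8, by 2.08 in WT CD8 and by 3.40 in Cat-Tg CD4. In WT CD4 it was not called. The CD4 interaction of Wls was −3.22 (edgeR adjusted p = 0.00164). With libraries scaled to the T cell genes that interaction was −1.25 (edgeR adjusted p = 0.153). Of the receptors and membrane regulators, 13 of 22 were tested in CD8 and 16 in CD4. Between genotypes post-tx, edgeR again called 0, against the same 1.67% and 10.2% of all genes. An unadjusted p under 0.05 was found for 1 and 4 of them, with 0 and 2 called by DESeq2 and 0 and 1 by limma-voom. Kremen2, a co-receptor of Dickkopf proteins, rose post-tx by 2.08 in Cat-Tg CD8, by 4.27 in WT CD8, by 2.33 in Cat-Tg CD4 and by 3.21 in WT CD4. The Cat-Tg CD8 call held in 2 of 6 fits with 1 library left out (highest edgeR adjusted p 0.119). Scaled to the T cell genes, Kremen2 rose by 1.92 in Cat-Tg CD8, by 1.41 in WT CD8 and by 1.80 in WT CD4.

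Of 18 naive and memory T cell genes tied to TCF-1 and LEF-1, 9 fell and 1 rose post-tx in Cat-Tg CD8 (13.9% of all genes called), with the homing receptor gene Ccr7 at −7.40, Igfbp4 at −6.85 and Dapl1 at −6.08. In WT CD8 12 fell and 1 rose (23.6% of all genes called), in Cat-Tg CD4 11 fell and 1 rose (45.2%), and in WT CD4 8 fell and 4 rose (24.3%). On that T cell scale the numbers that fell were 9, 17, 7 and 12, and those that rose 0, 0, 1 and 0, in the same order. Of all genes, that scale called 2047 of 15960 in Cat-Tg CD8 and 11557 in WT CD8, and 8134 of 17227 in Cat-Tg CD4 and 8478 in WT CD4. Between genotypes post-tx, 1 of 18 was called in CD8 (1.67% of all genes), the chemokine gene Xcl1, lower in Cat-Tg at −3.77. In CD4 post-tx 5 of 18 were called (10.2% of all genes), with Xcl1 (−4.27), Cxcr5 (−2.28) and Slamf6 (−1.39) lower and Igfbp4 (1.59) and Ccr7 (0.74) higher. Pre-tx, 5 were higher and 1 lower in Cat-Tg CD8 (8.98% of all genes), led by Dapl1 (3.48) and the interleukin 7 receptor gene Il7r (2.53), and 7 were higher and 2 lower in Cat-Tg CD4 (20.4%), led by Il7r (3.57). Scaled to the T cell genes these counts turned to 0 higher and 12 lower in CD8 pre-tx and to 1 higher and 11 lower in CD4 pre-tx. On that scale 10191 of 15960 genes were called in CD8 pre-tx and 8250 of 17227 in CD4 pre-tx. The median over the 18 was −1.68 in Cat-Tg CD8 post-tx against pre-tx and −2.07 in WT CD8, beside −0.26 and −0.23 over all genes.

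The genes most like Tcf7 over the 24 libraries, by Pearson correlation of log2 CPM among 12856 protein-coding genes, were Nsg2 (r = 0.95), Rgs10 (0.90), Sesn1 (0.89), Lef1 (0.87) and Pdk1 (0.87). Among those most like Lef1 were Pdk1 (0.88), Tcf7 (0.87), Sesn1 (0.86) and Nsg2 (0.86). Those most like Ctnnb1 were Qrich1 (0.93), Aqr (0.92), Ndel1 (0.92), Eif2ak1 (0.91) and Ugdh (0.91). The correlation of Ctnnb1 with Tcf7 was 0.10 and with Lef1 0.04. The libraries share group, depth and cell makeup, and these values are descriptions with no test.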

How the data were processed

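Per the labels, total RNA was made into cDNA with the SMARTseq HT kit and Nextera XT libraries, for 24 libraries in 8 groups of 3. The kit is not stated to keep strand, so overlapping antisense reads cannot be told apart. The authors deposited 1 kallisto 0.46.2 table per library with estimated counts, TPM and transcript lengths. The estimated counts deposited are not normalized, and the TPM deposited are scaled by effective length. The submitters' notes name mm9 and limma, and the index release is not given in the sources used here. Of 117497 transcripts, 116374 matched GENCODE M21 by identifier and held 99.57% to 99.75% of counts, and of 84 transcripts of the listed genes 82 had the same length.

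Counts were summed to symbols, rounded and fitted in edgeR 4.0.16 (R 4.3.3) with TMM and the robust quasi-likelihood test, on genes over 1 CPM in at least 3 libraries of the fit (12 CD8, 12 CD4 or 24 libraries; 15960, 17227 and 19076 genes). The study's methods fitted normalized TPM with limma-voom, which was run here on counts as an alternative (limma 3.58.1), beside DESeq2 1.42.0. A gene was called at a Benjamini-Hochberg adjusted p of at most 0.05, and intervals are at 95%. TPM served only to set genes beside each other, for 1 alternative and for shares. The planned share test for Tcf7 was void, since both transcripts carry the same start codon. Fits were tested on simulated data. The genes named are the listed genes, at most 4 called genes per other list and comparison with the largest fold change, and the 5 genes most like Tcf7, Lef1 and Ctnnb1 (over 1 CPM in at least 12 libraries). A gene that this rule would name is not reported here. The genes and lists were chosen with earlier results of these data known. Intervals of fold changes reflect the spread between libraries, and the floor of 3 counts covers counting error only. No libraries of a group agreed within sampling noise.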

Additional observations from a re-analysis of the deposited data

Results flagged for a closer look

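In 4 cases the edgeR interaction test called a difference of the Cat-Tg effect between pre-tx and post-tx. These were 1 of 9 listed genes in CD8 (10.7% of all genes called) and 3 of 10 in CD4 (21.4%). For Gsk3b in CD8 the difference was 2.44 on the log2 scale, with Cat-Tg below WT pre-tx (12 against 42.6 CPM) and above it post-tx (24.2 against 14 CPM). For Tcf7 in CD4 it was −2.33, with Cat-Tg above WT pre-tx (273 against 131 CPM) and below it post-tx (66.2 against 145 CPM). For Lef1 in CD4 it was −1.03, with Cat-Tg at 228 against 119 CPM pre-tx and at 101 against 99.4 post-tx. For Tcf7l2 in CD4 it was 1.92, with Cat-Tg at 7.64 against 6.7 CPM pre-tx and at 42.5 against 9.16 post-tx. The WT pre-tx libraries, in which the sort markers did not separate and B cell genes were high, stand on one side of all 4. With 1 library left out, the Gsk3b call was lost in 10 of 12 fits, the Lef1 call in 8 and the Tcf7l2 call in 4, while the Tcf7 call held. Scaled to the T cell genes, Tcf7 and Lef1 were not called in the CD4 interaction, and Lef1 turned direction. Of 12 myeloid genes, 8 were called higher in the same CD4 interaction as Tcf7l2 (median 2.27), and their part in it was not tested.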

How the results depend on the processing

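The number of listed genes called moved most when libraries were scaled to T cell genes. It was then 7 for Cat-Tg against WT in CD8 pre-tx, 1 in CD8 post-tx, 6 in CD4 pre-tx and 1 in CD4 post-tx. Of all genes, this scaling called 10191 of 15960 in CD8 pre-tx, 381 in CD8 post-tx, 8250 of 17227 in CD4 pre-tx and 1724 in CD4 post-tx. Post-tx against pre-tx, the number of listed genes was 9 in WT CD8 (11557 of all genes), 7 in Cat-Tg CD4 (8134) and 5 in WT CD4 (8478). For the interaction it was 6 in CD8 (6927 of all genes) and 5 in CD4 (6803). For CD8 against CD4 in Cat-Tg post-tx it was 6 (2166 of 19076 genes). With DESeq2 it was 4 in CD8 pre-tx, 1 in CD8 post-tx and 2 for WT CD4 post-tx against pre-tx, and with limma-voom 4 in CD8 pre-tx and 2 for WT CD4. With only the 6 libraries compared it was 4 in CD8 pre-tx and 2 for CD8 against CD4 in WT post-tx. With length-scaled TPM it was 1 in CD8 post-tx, 2 for the CD8 interaction, 2 for WT CD4 and 1 for CD8 against CD4 in Cat-Tg post-tx. Without both CD8 post-tx libraries numbered 3, added after seeing the data, it was 2 for WT CD8 post-tx against pre-tx and 0 for the CD8 interaction. The Ctnnb1 share difference was 32.2 points with TPM, and 48.7 in CD8 alone and 3.1 in CD4 alone (added after seeing the data), each with an adjusted exact permutation p of 0.3. The Tcf7 share test could not be made.

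Replicate numbers paired the libraries in none of the comparisons (the correlations of same-numbered libraries were not all over 0.1). With the replicate block it was 1 in CD8 pre-tx, 3 for WT CD8 post-tx against pre-tx, 0 for the CD8 interaction and 1 for CD8 against CD4 in Cat-Tg post-tx, and the other counts stayed within 1.5 times. With the block, CD8 against CD4 lost Bcl9 in Cat-Tg post-tx (adjusted p 0.079) and Axin2 and Bcl9 in WT post-tx (0.0607 and 0.12). The labels do not say that a number marks a mouse.

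Leaving out 1 library gave 0 to 2 calls in CD8 pre-tx, 0 to 1 in CD8 post-tx, 1 to 2 in CD4 pre-tx and 2 in CD4 post-tx. It gave 2 to 3 for Cat-Tg CD8 post-tx against pre-tx, 2 to 4 for WT CD8, 3 to 4 for Cat-Tg CD4 and 1 for WT CD4, 0 to 1 and 1 to 3 for the interaction in CD8 and CD4, and 0, 1 to 2 and 3 to 6 for CD8 against CD4 in Cat-Tg pre-tx, Cat-Tg post-tx and WT post-tx. The Ctnnb1 share difference ran from 14.1 to 36.1 points and that of Lef1 from 1.51 to 14.6.

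Fold changes turned direction as follows. With T cell scaling, Tcf7 and Lef1 were at −0.73 and −1.11 in CD8 pre-tx, Ctnnb1, Tcf7 and Lef1 at −1.34, −0.39 and −0.51 in CD4 pre-tx, Ctnnb1 at 0.25 in CD4 post-tx, Tcf7 at 2.0 in the CD8 interaction, Ctnnb1 and Lef1 at 1.60 and 0.88 in the CD4 interaction, and Tcf7 at −0.0043 and Lef1 at −0.78 for CD8 against CD4 in Cat-Tg pre-tx and post-tx. Differences near 0 also turned, Lef1 in the CD8 interaction to −0.03 (DESeq2 and its size factors), Ctnnb1 in CD4 pre-tx to −0.01 (both of these and no filter) and −0.02 (6 libraries), Lef1 in CD4 post-tx to −0.01 (limma-voom) and −0.08 (length-scaled TPM), Tcf7 in WT CD4 to 0.04 (length-scaled TPM), Ctnnb1 for CD8 against CD4 in Cat-Tg post-tx to 0.05 (no filter) and 0.02 (length-scaled TPM), and Lef1 there to −0.06 (6 libraries). Leaving out 1 library, those that turned were Ctnnb1 in CD8 pre-tx (−0.57 to 0.13), CD4 pre-tx (−0.23 to 0.40), CD4 post-tx (−0.33 to 0.03), the CD4 interaction (−0.58 to 0.23) and CD8 against CD4 in Cat-Tg post-tx (−0.23 to 0.35), Lef1 in CD4 post-tx (−0.12 to 0.15), the CD8 interaction (−0.01 to 0.56) and CD8 against CD4 in Cat-Tg post-tx (−0.12 to 0.27), and Tcf7 in WT CD4 (−0.24 to 0.03). Apart from the T cell scaling, which differs by construction where the T cell genes differ, the cause was not tested. Depth limits Axin2, Bcl9 and Nkd1, which had 15 counts or fewer in some groups.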
